A study of Mus musculus with 9 samples.

Results

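The 3 cardiac myosin heavy chain genes of the mouse, Myh6, Myh7 and Myh7b, were followed through 9 RNA sequencing libraries of left ventricular tissue. They were taken by symbol from a deposited table of 30128 genes and chosen with their levels in these libraries known, so their levels, ratios and differences are given as a description, with no test. Control mice were wild type, and their labels name no virus (3 libraries). The null-virus group was db/db, a genotype lacking the long form of the leptin receptor that becomes obese and diabetic, treated with AAV9_null, an adeno-associated virus of serotype 9 labelled as null (3 libraries). The USP28-virus group was db/db treated with AAV9_USP28 (3 libraries), in which, per the series' design text, the cardiac troponin T promoter drives the deubiquitinating enzyme USP28. Null virus against control therefore differs in genotype and in virus, and the genotype and the virus cannot be told apart. The stated purpose was to test USP28 overexpression in the failing diabetic heart. The labels give no strain, age, sex, virus dose or time of collection. They do not say whether the libraries came from separate animals, so p-values measure the spread between these libraries alone.

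Myosin heavy chains form the thick filament and carry the motor that splits ATP and pulls on actin. Myh6 encodes α-myosin, the fast isoform that makes up most of the adult mouse ventricle, and Myh7 encodes β-myosin, the slower isoform of the fetal ventricle. Thyroid hormone is known to raise Myh6 and lower Myh7, and a shift from Myh6 towards Myh7 is a known feature of stressed rodent hearts. Myh7b encodes another, ancient heavy chain whose heart mRNA is mostly spliced to a form that gives no full protein. Each gene carries a microRNA in an intron, miR-208a in Myh6, miR-208b in Myh7 and miR-499 in Myh7b. On GRCm38, Myh6 spans 54941981 to 54966927 of chromosome 14 and Myh7 lies beside it at 54970688 to 54994634, both on the minus strand. Myh7b lies on the plus strand of chromosome 2, from 155611212 to 155634307.

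The mature microRNAs are shown because they are the products that tie the 3 genes together, with the seed, bases 2 to 8, in capitals (RefSeq, GRCm38.p6).
mmu-miR-208a-3p: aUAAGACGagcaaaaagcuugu
mmu-miR-208b-3p: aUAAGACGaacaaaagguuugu
mmu-miR-499-5p: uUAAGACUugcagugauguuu
The seeds of miR-208a-3p and miR-208b-3p were identical over all 7 bases, and that of miR-499-5p had the same base at 6 of the 7 positions.

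Levels are RPKM, reads per kilobase of gene length at a common depth, scaled between libraries by a trimmed mean of M values. The reads behind them were recovered from the values, and depth was 35970332 to 56497662 reads per library. Null-virus replicate 1 stood apart, with a mean absolute departure from its group mean of 0.334 (log2) over tested genes, against 0.145 to 0.214 in the other libraries. In it, the light chain Myl2 was at 3627 scaled RPKM against 1517 and 1526 in the other null-virus libraries, and the calcium channel Ryr2, named after its values were seen, at 22.8 against 61.6 and 69.9. USP28-virus replicate 1 held RNA of atrial type, with the atrial light chain Myl7 at 89.5 scaled RPKM, where the other libraries of its group were listed at 0. The 5 summed atrial markers reached 1425 scaled RPKM in it and 78.8 to 340 in the other 8 libraries. Most of that sum was 1 gene, the natriuretic peptide Nppa, at up to 1281 scaled RPKM in the USP28-virus group and 332 in the null-virus group. Results are therefore also given without null-virus replicate 1 or USP28-virus replicate 1 where that moved them. Usp28 itself, the check of the design, fell with null virus against control (log2 difference -0.66, SE 0.12, adjusted p = 0.00728) and did not pass the test for USP28 virus against null virus (0.37, SE 0.12, adjusted p = 0.187). Its level was 12.6 to 13.9 scaled RPKM in control, 7.52 to 9.87 with null virus and 9.77 to 11.4 with USP28 virus. Every USP28-virus library thus lay below every control library in Usp28. The summed markers of ventricular cardiomyocytes were 13090 to 14515 scaled RPKM in control, 12743 to 20877 in the null-virus group and 11830 to 13006 in the USP28-virus group, so every library held cardiomyocyte RNA. These sums do not tell heart chambers apart, since USP28-virus replicate 1, with its atrial RNA, was at 11993. Of the 7 ventricular markers, 1 was called in each comparison with control, Actc1. It was lower with null virus (-1.65, SE 0.19, adjusted p = 0.00143) and with USP28 virus (-1.14, SE 0.19, adjusted p = 0.0102). Among markers of other cells, with null virus against control, 3 of 6 fibroblast markers fell, Col3a1, Lum and Col1a1, where 22.2% of all genes were called. The other 3 lay above 0 without a call, Tcf21 at 0.66, Dcn at 0.30 and Pdgfra at 0.10. Of 5 macrophage markers, 2 fell, Cx3cr1 and Cd68, and all 5 lay below 0. Of 5 endothelial markers, 1 rose, Cldn5, and 4 lay above 0. Kdr lay below 0, at -0.48, without a call. The summed fibroblast markers were 71.7 to 86.8 scaled RPKM in control and 70.6 to 82.2 with null virus, the macrophage markers 19.4 to 23.8 and 14.0 to 17.4, and their part in the results was not tested. Most of the fibroblast sum was Dcn, with means of 53.4 scaled RPKM in control and 65.6 with null virus. That sum therefore does not follow the 3 fibroblast markers that fell. The 8 skeletal muscle markers summed to 1.72 to 2.87 scaled RPKM in all libraries, near 0 beside Myh7 and Myh7b. In tissue RNA, fewer cardiomyocytes and less RNA per cardiomyocyte cannot be told apart.

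Myh6 was the dominant heavy chain in every library. Its level in control was 19746, 16658 and 18153 scaled RPKM, with null virus 16364, 13121 and 11969, and with USP28 virus 16081, 15639 and 18601. All null-virus libraries lay below all control libraries, and the USP28-virus libraries overlapped both groups. Myh6 took 8.0% to 12.3% of all reads of a library and ranked between 10 and 17 among all genes by RPKM. The group means were 18186 ± 1544, 13818 ± 2279 and 16774 ± 1598 scaled RPKM (SD, n = 3) for control, null virus and USP28 virus in turn. On the log2 scale the difference was -0.41 (SE 0.16) for null virus against control, 0.29 (SE 0.16) for USP28 virus against null virus and -0.12 (SE 0.16) for USP28 virus against control. The first and second of these share the null-virus libraries, so one low group enters both. Without null-virus replicate 1 they were -0.53 and 0.42. The USP28-virus and control levels, neighbours in the order, did not differ beyond their spread.

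Myh7 was higher in both db/db groups than in control, and its null-virus value rested on 1 library. It measured 357, 253 and 288 scaled RPKM in control, 911, 319 and 393 in the null-virus group and 547, 533 and 492 in the USP28-virus group. Every USP28-virus library lay above every control library, while null-virus replicate 2, at 319, fell within the control range and replicate 1, at 911, was the highest of all 9. The means were 299 ± 52.7, 541 ± 322 and 524 ± 28.8 scaled RPKM (SD, n = 3). The log2 difference was 0.71 (SE 0.34) for null virus against control and 0.26 without null-virus replicate 1. For USP28 virus against control it was 0.82 (SE 0.34), and 0.79 without USP28-virus replicate 1. For USP28 virus against null virus it was 0.11 (SE 0.34), with 0.56 without null-virus replicate 1, -0.19 without replicate 2 and -0.04 without replicate 3, so the order of the db/db groups depended on single libraries.

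Myh7b set null virus apart from both other groups. Its level was 77.0, 112 and 125 scaled RPKM in control, 32.6, 22.1 and 25.3 in the null-virus group and 78.4, 72.4 and 75.2 in the USP28-virus group. The highest null-virus library, at 32.6, lay far under the lowest library of either other group, at 72.4. The means were 105 ± 24.9, 26.7 ± 5.38 and 75.3 ± 3.03 scaled RPKM (SD, n = 3), which makes the null-virus mean 3.93-fold lower than the control mean and the USP28-virus mean 2.82-fold higher than the null-virus mean. On the log2 scale the differences were -1.96 (SE 0.20), 1.51 (SE 0.20) and, for USP28 virus against control, -0.45 (SE 0.20). USP28-virus replicate 1, at 78.4, lay just above control replicate 1, at 77.0, so these neighbouring groups overlapped by a single pair of libraries. The reads behind Myh7b numbered 5870 to 41801 per library. With each library left out in turn, the difference was -2.17 to -1.82 for null virus against control and 1.39 to 1.67 for USP28 virus against null virus.

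**Figure D1:**
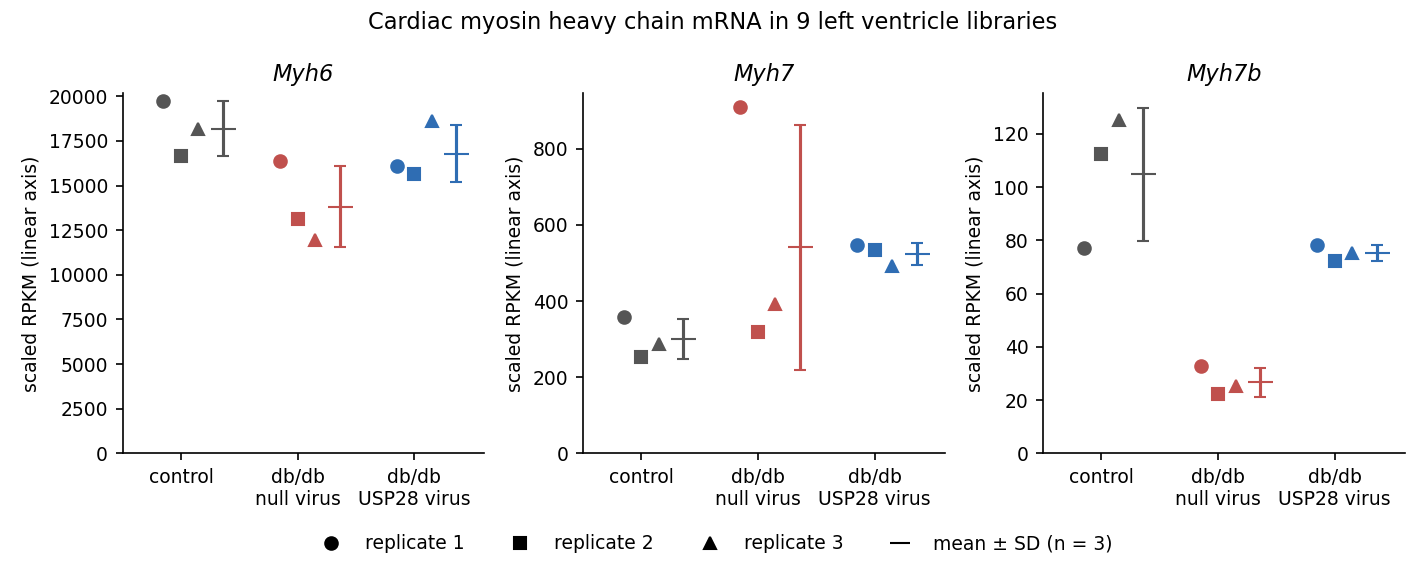
Scaled RPKM of Myh6, Myh7 and Myh7b (linear axes from 0) in 9 left ventricle libraries, with a marker for each replicate and the group mean ± SD (n = 3) beside them. The null-virus libraries of Myh7b, at 22.1 to 32.6, lie below all others, whereas the null-virus libraries of Myh7 spread from 319 to 911.

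Non-overlapping groups were common in these libraries. Null virus and control did not overlap for 2 of the 3 heavy chains, Myh6 and Myh7b, and for 41.1% of the 14104 genes tested. USP28 virus and null virus did not overlap for 1 of 3, Myh7b, and for 23.2% of all genes, and USP28 virus and control for 1 of 3, Myh7, and for 45.4%. Nothing is read from these counts, since the genes were chosen on the same contrasts.

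The balance between the isoforms was taken within each library, where scaling has no part. Myh7 amounted to 1.81%, 1.52% and 1.59% of Myh6 in control, 5.57%, 2.43% and 3.28% in the null-virus group and 3.4%, 3.41% and 2.64% in the USP28-virus group. All 6 db/db libraries lay above all control libraries, and both db/db groups overlapped. The means were 1.64% ± 0.15, 3.76% ± 1.62 and 3.15% ± 0.440 (SD, n = 3). The geometric mean ratio was 2.17-fold higher with null virus and 1.92-fold higher with USP28 virus than in control. The log2 difference of the ratio for null virus against control was 1.12, and 0.79 without null-virus replicate 1. Between USP28 virus and null virus it was -0.18, against a pooled SD of 0.45, and 0.15 without null-virus replicate 1.

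Myh7b amounted to 0.390%, 0.674% and 0.689% of Myh6 in control, 0.199%, 0.168% and 0.211% in the null-virus group and 0.488%, 0.463% and 0.404% in the USP28-virus group. The null-virus libraries lay below all others, and the control and USP28-virus ranges overlapped. Against Myh7, Myh7b stood at 21.6%, 44.3% and 43.4% in control, 3.58%, 6.92% and 6.45% in the null-virus group and 14.3%, 13.6% and 15.3% in the USP28-virus group. This was the only ratio of the 3 in which no pair of groups overlapped, with USP28 virus between the other groups. Its geometric mean was 2.65-fold higher with USP28 virus than with null virus and 0.415 times the control value. Of the summed RPKM of the 3 genes, Myh6 held 97.8% ± 0.0437 in control, 96.2% ± 1.50 in the null-virus group and 96.5% ± 0.449 in the USP28-virus group (SD, n = 3).

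**Figure D2:**
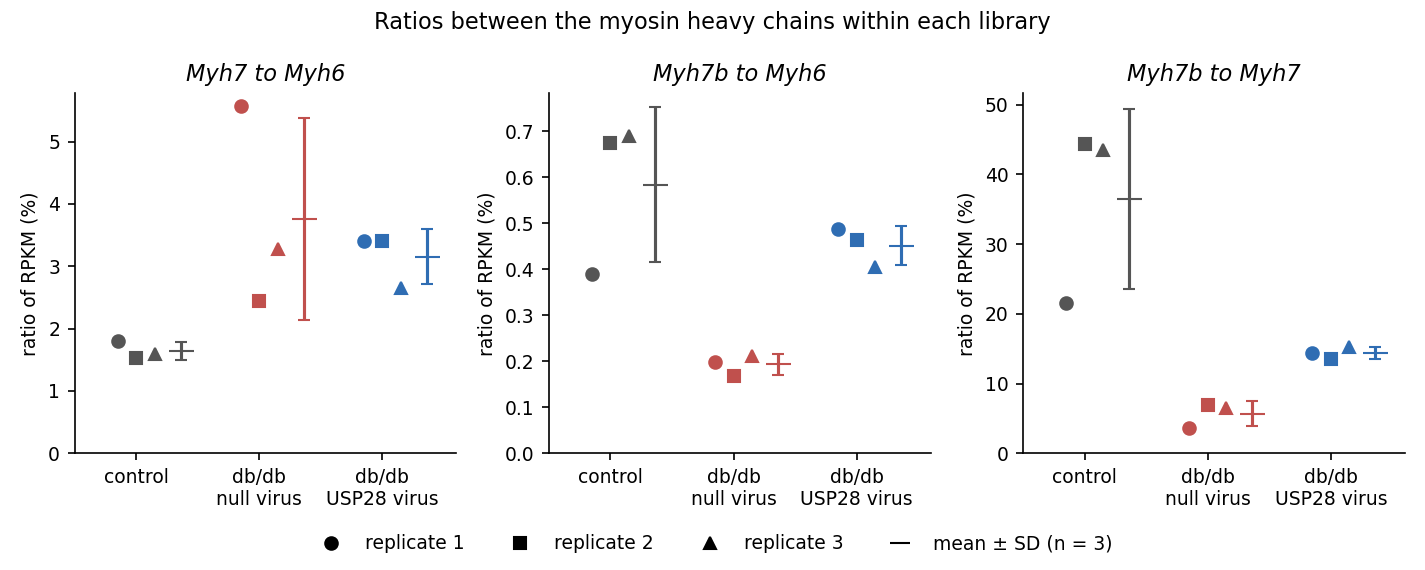
Ratios between the heavy chains in each library, as percent of RPKM (linear axes from 0), with a marker for each replicate and the group mean ± SD (n = 3). Myh7 to Myh6 is 1.52% to 1.81% in control and 2.43% to 5.57% in the db/db libraries, and Myh7b to Myh7 is lowest with null virus, at 3.58% to 6.92%.

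Across the 9 libraries, Pearson's r of log2 levels was 0.02 between Myh6 and Myh7, 0.77 between Myh6 and Myh7b and -0.31 between Myh7 and Myh7b. Once each library was set against its own group mean, the values were 0.75, 0.15 and 0.38. These are descriptions over libraries that share their groups and their scaling. The relation of Myh6 to Myh7b thus lay between groups. That of Myh6 to Myh7 appeared against group means and was not shared by all groups. Null-virus replicate 1 was the highest of its group in both genes, at 16364 and 911 scaled RPKM. In the USP28-virus group, the library highest in Myh6 was lowest in Myh7. No r was taken without null-virus replicate 1.

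Part of the Myh7 signal could not be assigned to 1 gene. Mhrt, an antisense RNA that starts between Myh6 and Myh7 and is known in mouse to bind the chromatin remodeller Brg1, shares 463 exon bases with Myh7, which is 38.1% of Mhrt and 5.39% of Myh7. The gene model Gm29015 shares 142 bases with Myh7, 68.6% of its own length. The libraries were directional, but none of the sources used here states the strand setting of the counting, so Myh7 reads and reads of these RNAs cannot be told apart where they overlap. Mhrt measured 1834, 1375 and 1554 scaled RPKM in control, 3686, 1509 and 1578 in the null-virus group and 2169, 2159 and 2150 in the USP28-virus group. As with Myh7, null-virus replicate 1 was highest and the USP28-virus libraries lay above all control libraries. Over the 9 libraries r between Mhrt and Myh7 was 0.97. Mhrt passed the test in neither comparison with control (null virus 0.39, SE 0.31, adjusted p = 0.393, and USP28 virus 0.45, SE 0.31, adjusted p = 0.373). Without null-virus replicate 1 it passed for USP28 virus against control (0.45, adjusted p = 0.0112) and against null virus (0.48, adjusted p = 0.0418). Gm29015 was among the genes most like Myh7 over these libraries and was chosen with its values seen, so it is described with no test. Its log2 difference was 1.54 (SE 0.48) for null virus against control. The null-virus libraries spread from 1259 to 5816 scaled RPKM. Taking the reads of Myh7, Mhrt and Gm29015 together, a choice made after seeing the data, the log2 difference of the ratio to Myh6 was 1.04 for null virus and 0.83 for USP28 virus against control.

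Myh6 and Myh7 are also close in sequence. Their GENCODE transcripts matched at 90.54% of 6048 aligned bases, and 5.43% of 150-base windows of Myh7, the read length, occurred exactly in Myh6, as did 15.3% of 75-base windows. Myh7b matched Myh6 at 72.59% and shared 0 such windows with either gene. None of the sources used here states how reads that match both genes were counted, and since Myh6 was far more abundant, the Myh7 level carries that doubt more than the Myh6 level.

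The rows of the microRNA genes do not measure mature microRNA in libraries of polyadenylated RNA. Mir208a, an 83-base row inside Myh6 that shares none of its exon bases, held 56 to 180 reads per library, and Mir208b, inside Myh7, held 48 to 259. Mir208a was at 38.9, 34.9 and 33.0 scaled RPKM in control, 22.0, 35.8 and 24.8 in the null-virus group and 39.1, 38.2 and 30.8 in the USP28-virus group, and the groups overlapped. Its log2 difference was -0.40 (SE 0.18, adjusted p = 0.145) for null virus against control. Mir208b stood at 20.4 scaled RPKM in null-virus replicate 1, its lowest library, where Myh7 was highest, and had a log2 difference of -0.56 (SE 0.34, adjusted p = 0.265). Mir499, inside Myh7b, had 0 to 2 reads per library, under the floor of 3 reads that a count of 0 allows, so its row could not be followed. The 93-base gene model Gm17428, inside Myh7 without shared exon bases, was chosen with its values seen, so it is described with no test. Its log2 difference for null virus against control was -1.01 (SE 0.21), opposite in sign to the Myh7 difference.

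**Figure D3:**
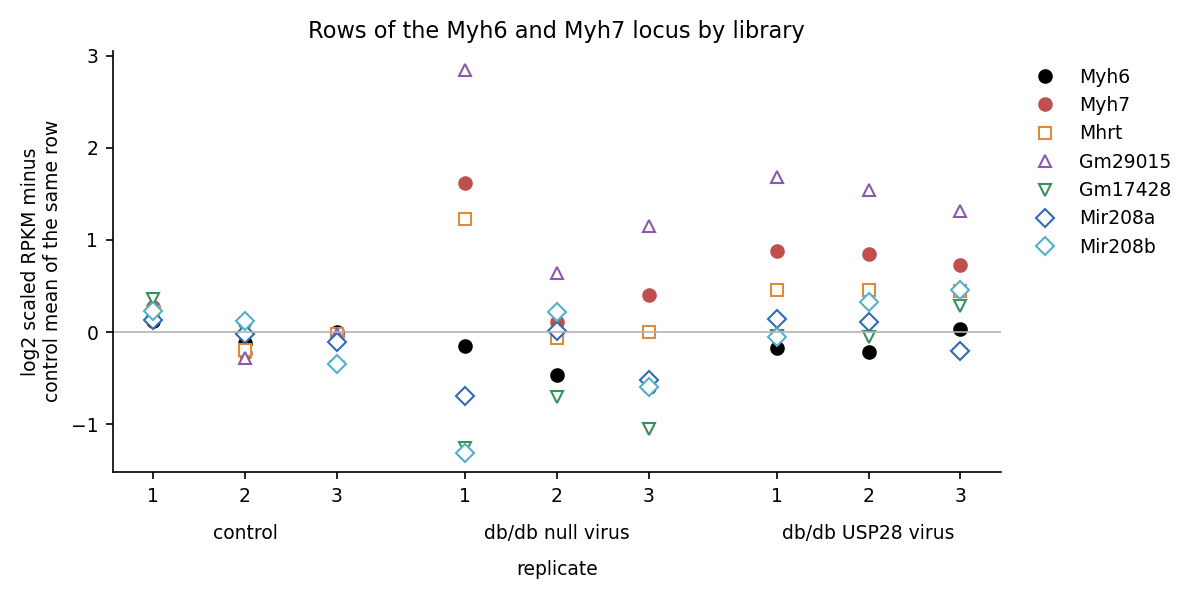
Log2 scaled RPKM of the rows at the Myh6 and Myh7 locus in each library, minus the mean of the control libraries of the same row (0 line). Myh7, Mhrt and Gm29015 are highest in null-virus replicate 1, while Gm17428, Mir208a and Mir208b lie below the line there.

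The flanking genes Cmtm5, Ngdn, Trpc4ap, Edem2 and Gssos1 did not pass the test in any of the 3 comparisons. Cmtm5, below Myh6 on the chromosome, had a log2 difference of -0.08 (SE 0.25, adjusted p = 0.839) for null virus against control, and Ngdn, beyond the start of Myh7, had 0.45 (SE 0.20, adjusted p = 0.139). Around Myh7b, Trpc4ap, which overlaps its 3′ end by 37 exon bases, was at 3.59 to 3.82 scaled RPKM in control, 3.62 to 4.18 in the null-virus group and 3.51 to 3.87 in the USP28-virus group. With null virus against control its log2 difference was 0.06 (SE 0.09, adjusted p = 0.662), beside -1.96 for Myh7b. Edem2 and Gssos1 had 0.37 (SE 0.22, adjusted p = 0.253) and -0.14 (SE 0.21, adjusted p = 0.675).

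By Pearson's r over the 9 libraries among 4570 tested genes with a mean of at least 5 scaled RPKM, the 5 genes most like Myh7b were Rbm20 (0.96), Ppp2r3a (0.96), Col15a1 (0.95), Map7d1 (0.95) and Zc3h7b (0.95). Rbm20, a splicing regulator of titin and other cardiac transcripts, measured 37.4, 40.3 and 42.7 scaled RPKM in control, 29.8, 21.9 and 24.7 in the null-virus group and 38.1, 39.0 and 41.4 in the USP28-virus group. Like Myh7b, it was lowest in all null-virus libraries. These genes were picked for following a heavy chain over the same libraries, which sets the direction of their differences, so they are described with no test. The log2 difference of Rbm20 was -0.66 (SE 0.12) for null virus against control and 0.64 (SE 0.12) between USP28 virus and null virus. Relative to group means its r with Myh7b was 0.82. Col15a1, a collagen chain, had -2.10 (SE 0.19) and 1.56 (SE 0.19). Its r within groups was 0.23, and that of Zc3h7b 0.03, so their likeness to Myh7b lay between the groups.

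**Figure D4:**
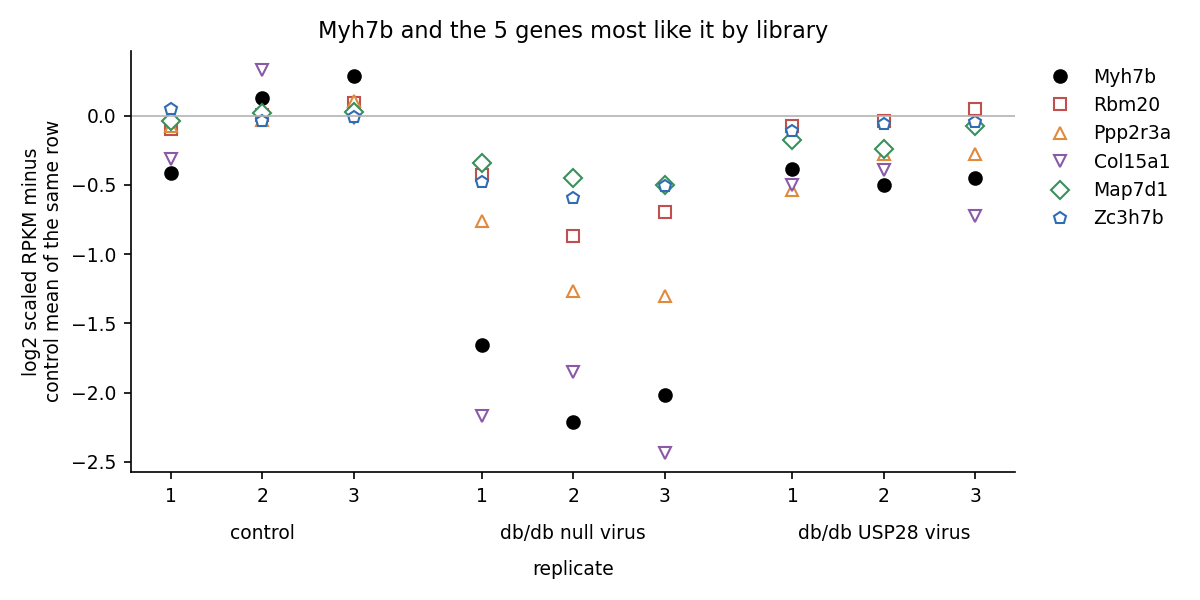
Log2 scaled RPKM of Myh7b and the 5 genes most like it over 9 libraries, each minus its own mean of the control libraries (0 line). All 6 genes lie below the line in the 3 null-virus libraries, Myh7b and Col15a1 by the most.

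The genes most like Myh7 were Gm15387 (r = 0.98), Gm29015 (0.98), Dnttip1 (0.98), Rbm3 (0.97) and Cdk5rap3 (0.97). Gm29015 overlaps Myh7. Rbm3, a cold-induced RNA-binding protein, measured 9.62, 7.23 and 6.79 scaled RPKM in control, 30.9, 10.8 and 12.6 in the null-virus group and 18.4, 15.7 and 17.4 in the USP28-virus group, again highest in null-virus replicate 1. Its log2 difference for null virus against control was 1.04 (SE 0.34). For Myh6 they were Atp5sl (0.95), Apex1 (0.93), Mlf1 (0.92), Rrp9 (0.92) and Gpt (0.92). Gpt, alanine aminotransferase, had a log2 difference of -0.94 (SE 0.20) for null virus against control. The points behind these correlations share library, depth and group.

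Of 93 tested genes in 12 lists of myosin genes, myosin partners and regulators, 26 fell and 6 rose with null virus against control, where 22.2% of all 14104 genes were called (9.7% higher and 12.5% lower). Called means an adjusted p under 0.05 in limma. The median log2 difference of the 93 was -0.15, and that of all genes -0.01. Of the 32 calls, 16 held in all 9 fits with 1 library left out. Without null-virus replicate 1, 34 fell and 14 rose, and without control replicate 2 or 3, 19 and 18 were called in all. With USP28 virus against null virus, 0 of the 93 were called by limma, beside 0.489% of all genes. There 14 had an unadjusted p under 0.05, as had 16.7% of all genes, limma voom on the recovered reads called 2, Hr and Mylk4, and the fit without null-virus replicate 1 called 9. Against control, 12 fell and 7 rose with USP28 virus, beside 11.7% of all genes (5.42% higher and 6.25% lower). The calls there numbered 46 when null-virus replicate 1 was left out, 8 or 9 when control replicate 2 or 3 was, and 9 or 10 when USP28-virus replicate 1 or 3 was. The comparisons share libraries in pairs and are not independent of each other.

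None of the 7 other striated muscle heavy chains, Myh1, Myh2, Myh3, Myh4, Myh8, Myh13 and Myh15, reached the filter of 0.5 RPKM in at least 3 libraries, so Myh6, Myh7 and Myh7b were the striated heavy chains measured here. Among the 4 smooth muscle and nonmuscle heavy chains, Myh14, nonmuscle myosin IIC, measured 53.5, 43.3 and 48.3 scaled RPKM in control, 94.5, 79.8 and 94.1 in the null-virus group and 91.9, 81.7 and 97.9 in the USP28-virus group. Both db/db groups lay above control, and Myh14 rose in each (0.89, SE 0.12, adjusted p = 0.00234, and 0.90, SE 0.12, adjusted p = 0.00496). Myh10, nonmuscle myosin IIB, fell with null virus (-0.62, SE 0.16, adjusted p = 0.0259), a call lost in 3 of the 9 fits with 1 library left out. Myh9 and the smooth muscle heavy chain Myh11 did not pass the test.

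Of 11 tested light chains only Myl1 was called with null virus, where 22.2% of all genes were called. It was lower at -0.81 (SE 0.21, adjusted p = 0.0283), a call lost without any 1 of the control libraries. The ventricular regulatory light chain Myl2 had a log2 difference of 0.14 (SE 0.31, adjusted p = 0.769) and the ventricular essential light chain Myl3 had -0.02 (SE 0.21, adjusted p = 0.955). The atrial light chains Myl7 and Myl4 were high in USP28-virus replicate 1 alone, at 89.5 and 50.4 scaled RPKM, and at or under 4.71 in the other libraries. Myh6 in that library, 16081 scaled RPKM, lay between the others of its group. The part of atrial RNA in the members' levels was not tested, and without that library the USP28-virus against null-virus differences were 0.32 for Myh6, 0.08 for Myh7 and 1.48 for Myh7b.

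Of 7 tested regulators of light chain phosphorylation, 3 were called with null virus, where 22.2% of all genes were called. Mylk4, a striated muscle light chain kinase, measured 17.4, 14.6 and 14.9 scaled RPKM in control, 1.50, 2.23 and 2.46 in the null-virus group and 3.81, 7.49 and 6.01 in the USP28-virus group, with no overlap between any of the groups. It fell with null virus (-2.89, SE 0.25, adjusted p = 0.000635) and was lower than control with USP28 virus (-1.47, SE 0.25, adjusted p = 0.0107), while its USP28-virus against null-virus difference of 1.42 (SE 0.25, adjusted p = 0.055) did not pass. That difference passed without null-virus replicate 1, at 1.21 (adjusted p = 0.0341). Ppp1r12b, a myosin phosphatase targeting subunit of striated muscle, fell (-1.56, SE 0.29, adjusted p = 0.00728), and its relative Ppp1r12c rose (1.09, SE 0.16, adjusted p = 0.00282). The cardiac kinase Mylk3 had 0.39 (SE 0.12, adjusted p = 0.0533).

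Among 8 thick filament and M-band proteins, Mybpc3, cardiac myosin-binding protein C, measured 708, 710 and 755 scaled RPKM in control, 440, 370 and 361 in the null-virus group and 473, 557 and 585 in the USP28-virus group, so the groups stood apart in the order null virus, USP28 virus and control. It fell with null virus (-0.90, SE 0.13, adjusted p = 0.00268), and had 0.46 (SE 0.13, adjusted p = 0.139) for USP28 virus against null virus. That difference passed without null-virus replicate 1 (0.55, adjusted p = 0.0158) and with library totals alone (0.54, adjusted p = 0.0442). The giant scaffold Ttn fell (-0.78, SE 0.19, adjusted p = 0.0207), a call lost without any 1 of the control libraries. Myom2, an M-band protein that cross-links thick filaments, rose (1.09, SE 0.18, adjusted p = 0.00428), and so did Mybph (1.28, SE 0.37, adjusted p = 0.0374), which lost its call in 5 of the 9 fits. Of the 5 folding factors, 3 fell with null virus, where 12.5% of all genes were called lower. They were the methyltransferase Smyd1 (-0.94, SE 0.12, adjusted p = 0.00192), the myosin chaperone Unc45b (-0.68, SE 0.12, adjusted p = 0.00555) and the chaperone Hsp90aa1 (-1.30, SE 0.24, adjusted p = 0.00702). With USP28 virus against control, 6.25% of all genes were called lower and 5.42% higher. There the same 3 genes were lower, and the general chaperone Unc45a was higher (0.59, SE 0.11, adjusted p = 0.0147). Against control, Smyd1 kept its USP28-virus call in all 9 fits with 1 library left out, and Unc45b, Unc45a and Hsp90aa1 lost it in 3, 4 and 7.

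The slow-fibre list names the programme that Myh7 and Myh7b belong to in skeletal muscle. With null virus against control, 12.5% of all genes were called lower, as were 3 of the 8 tested genes of this list. They were the calcium pump Atp2a2 (-1.31, SE 0.34, adjusted p = 0.0259), the calcium store protein Casq2 (-0.90, SE 0.09, adjusted p = 0.000917) and slow troponin T, Tnnt1 (-0.83, SE 0.15, adjusted p = 0.00741). Atp2a2 stood at 242 scaled RPKM in null-virus replicate 1 and at 606 and 645 in the others, and lost its call without any 1 of the control libraries. With USP28 virus against control, 6.25% of all genes were called lower and 5.42% higher. There the same 3 genes were lower, Atp2a2 (-1.22, SE 0.34, adjusted p = 0.0493), Casq2 (-0.86, SE 0.09, adjusted p = 0.00245) and Tnnt1 (-0.99, SE 0.15, adjusted p = 0.00759), and the slow tropomyosin Tpm3 was higher (0.38, SE 0.09, adjusted p = 0.0341). Atp2a2 lost that call in 7 and Tpm3 in 6 of the 9 fits. Of the 5 fast-fibre genes tested, Casq1 (-1.69, SE 0.44, adjusted p = 0.0268) and Myl1 fell with null virus, and Casq1 lost its call in 4 of the 9 fits.

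Among 22 tested regulators of the heavy chain genes, 5 were called with null virus, 22.7% of the list beside 22.2% of all genes. The share called in either direction was thus that of the background. All 5 fell, where 12.5% of all genes were called lower. Tead1, which binds MCAT elements of muscle promoters, measured 4.01, 4.18 and 4.21 scaled RPKM in control, 1.41, 2.14 and 2.20 in the null-virus group and 1.86, 2.41 and 1.92 in the USP28-virus group. Both db/db groups lay below control, and Tead1 fell in each (-1.09, SE 0.17, adjusted p = 0.00416, and -0.98, SE 0.17, adjusted p = 0.0122), the second call being lost without control replicate 2 or 3 or USP28-virus replicate 1 or 3. The histone deacetylase Hdac9 (-0.99, SE 0.22, adjusted p = 0.0146), the muscle factors Mef2c (-0.93, SE 0.21, adjusted p = 0.0167) and Mef2a (-0.66, SE 0.14, adjusted p = 0.0142), and Srf (-0.52, SE 0.12, adjusted p = 0.0193) fell with null virus, each losing the call in 1 to 3 of the 9 fits. The described targets of miR-208 and miR-499 (Med13, Sox6, Sp3 and Purb) did not pass the test in any comparison. With null virus against control, Med13 had -0.32 (SE 0.13, adjusted p = 0.0969), Sox6, a repressor of slow muscle genes, had -0.56 (SE 0.19, adjusted p = 0.0651), Sp3 had 0.02 (SE 0.08, adjusted p = 0.886) and Purb had -0.20 (SE 0.09, adjusted p = 0.132).

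The promoters of Myh6 and Myh7 are shown because both hold the MCAT letters CATTCC, here as their reverse GGAATG in capitals, the kind of element that TEAD factors bind. Each runs from 250 bases before to 50 bases after the RefSeq start, on the minus strand of GRCm38.p6, and these starts are not the ends of the table's rows.
Myh6, chr14:54966558-54966857: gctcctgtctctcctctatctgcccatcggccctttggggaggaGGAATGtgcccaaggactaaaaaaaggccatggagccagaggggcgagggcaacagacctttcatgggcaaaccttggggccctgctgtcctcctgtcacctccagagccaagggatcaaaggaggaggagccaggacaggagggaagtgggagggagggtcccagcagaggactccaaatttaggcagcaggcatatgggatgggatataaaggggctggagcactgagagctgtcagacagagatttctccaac
Myh7, chr14:54994577-54994876: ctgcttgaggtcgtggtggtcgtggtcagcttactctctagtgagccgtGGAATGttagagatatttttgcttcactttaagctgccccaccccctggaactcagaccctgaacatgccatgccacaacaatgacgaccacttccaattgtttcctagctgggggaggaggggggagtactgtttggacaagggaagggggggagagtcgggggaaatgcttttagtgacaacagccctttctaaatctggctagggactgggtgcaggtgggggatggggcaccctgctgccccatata
The match began 206 bases before the start of Myh6 and 201 bases before that of Myh7, and the window of Myh7b held none on either strand. Myh7 had 2 promoter entries, and the distance and the letters shown are those of the first alone. Of 32851 promoters of the same length, 14.66% held the letters on 1 strand or the other. A match is a description and not a binding site.

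The thyroid hormone axis was described because Myh6 and Myh7 are known to answer the hormone in opposite directions. The receptor Thra measured 14.3 to 15.7 scaled RPKM in control and 14.3 to 16.4 with null virus, with a log2 difference of -0.01 (SE 0.10, adjusted p = 0.954), and Thrb had -0.35 (SE 0.21, adjusted p = 0.253). Of 11 tested receptors, cofactors and transporters, 3 were called with null virus, 27.3% of the list beside 22.2% of all genes and so near the background. All 3 fell, where 12.5% of all genes were called lower. The 3 were the coactivators Ncoa1 (-0.87, SE 0.20, adjusted p = 0.0183) and Med1 (-0.48, SE 0.13, adjusted p = 0.0343) and the transporter Slc16a10 (-0.69, SE 0.15, adjusted p = 0.0121), each losing the call in 1 to 4 of the 9 fits.

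Of the 14 thyroid hormone responsive genes, 6 fell and 2 rose with null virus against control, where 12.5% of all genes were called lower and 9.7% higher. Hr, a corepressor gene that the hormone induces, measured 2.0, 2.04 and 1.89 scaled RPKM in control, 0.491, 0.484 and 0.645 in the null-virus group and 0.820, 1.07 and 1.16 in the USP28-virus group, 3 groups without overlap. It fell with null virus (-1.71, SE 0.16, adjusted p = 0.000752) and with USP28 virus (-0.91, SE 0.16, adjusted p = 0.0114), the second call being lost without control replicate 2. Its USP28-virus against null-virus difference was 0.80 (SE 0.16, adjusted p = 0.0728), and it passed without null-virus replicate 1 (0.75, adjusted p = 0.0406). The pacemaker channel Hcn2 also fell in both (-1.37, SE 0.20, adjusted p = 0.00326, and -0.87, SE 0.20, adjusted p = 0.0296), the second call being lost in 5 of the 9 fits. The potassium channel Kcna5 (0.74, SE 0.12, adjusted p = 0.00387) and the mitochondrial carrier Ucp3 (1.85, SE 0.15, adjusted p = 0.000535) rose with null virus. The hormone is known to induce both, and its part in these differences was not tested. Kcnd2 and Hcn4, channel genes, fell with adjusted p of 0.0414 and 0.0494, and lost the call in 6 and in all 9 of the fits with 1 library left out. The median log2 difference of the 14 was -0.30, and that of all genes -0.01. The list was not split by the direction in which the hormone acts, so this median does not measure hormone action. Atp2a2, also in the slow-fibre list, was among the 6 that fell.

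**Figure D5:**
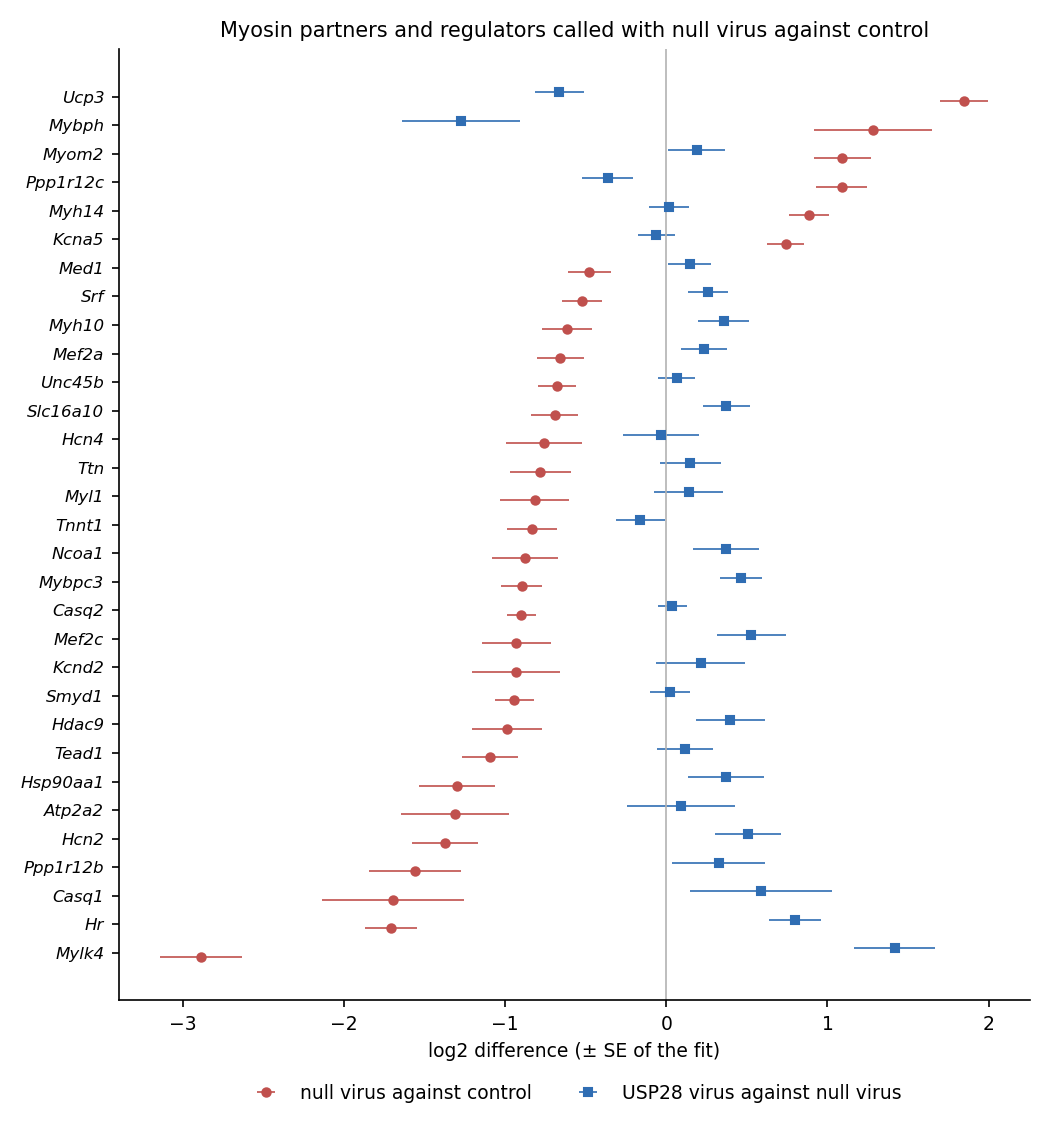
Log2 difference (± SE of the fit) of list genes called for null virus against control (circles), with their USP28-virus against null-virus difference (squares), of which none passed the test; 1 called gene is not drawn. Mylk4 is lowest with null virus at -2.89 and Ucp3 highest at 1.85, and both differences share the null-virus libraries.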

How the data were processed

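Left ventricular polyadenylated RNA of 9 mouse samples was sequenced from both ends in directional libraries, per the labels' protocols. HISAT2 and DESeq2 are named in the submitters' processing notes, with no version or role. The build is named there as GRCh38, although symbols and coordinates are of mouse GRCm38. The authors deposited 1 table of RPKM with gene length. Of the values above 0, 99.98% were whole reads within 0.01 reads. Of the symbols, 26 had become dates. RPKM was scaled by a trimmed mean of M values on recovered reads (trims of 30% and 5%), and log2(scaled RPKM + 0.1), a scale that understates changes of low genes, was fitted over all 9 libraries without covariates in limma 3.58.1 under R 4.3.3, using a robust prior with a trend. Genes with at least 0.5 RPKM in at least 3 libraries, 14104 in all, were tested, with Benjamini-Hochberg adjustment within each comparison and a threshold of 0.05. Intervals and floors cover counting error only. Replicates were compared and none were identical. The fit was also run on simulated data with the same spread in every library, which does not cover a library like null-virus replicate 1. Same-numbered replicates did not deviate together, so numbers were not used as pairs. The members and lists were chosen with earlier results of these data known. Named genes were the members, up to 4 called genes per list and comparison by size of difference, 12 regulators and light chains given by value whatever the result, the nearest tested neighbours and the 5 most similar genes of each member. Gm29015, Gm17428, Ryr2 and the genes named by leave-one-out results, were chosen once their values had been seen. Alternatives were other scalings, pseudocounts, filters, thresholds, 2-group fits, a replicate block, limma voom and each library left out. Figures used matplotlib 3.10.9, and transcripts were aligned with Biopython 1.88. Of the list genes called, 1 counts in the totals and is not reported here by name.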

Additional observations from a re-analysis of the deposited data

How the results depend on the processing

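Under other scalings, pseudocounts and limma voom, the log2 differences of Myh6, Myh7 and Myh7b moved by less than the spread between replicates. So did their ratios under another pseudocount. With a library left out, that spread held the library itself, so this yardstick could not show a move. Myh7 for null virus against control went from 0.71 to 0.26 without null-virus replicate 1. For USP28 virus against null virus, Myh7 ranged from -0.19 to 0.56. Counts of calls moved more. For null virus against control, 3133 genes became 2054 without the filter and 1657 with the 2 groups alone (list genes 21 in place of 32), and 1461 to 4428 with a library left out (list genes 18 to 48). For USP28 virus against null virus, 69 became 31 with library totals, 10 without the filter, 0 with the 2 groups alone, 0 with the replicate block, 181 with limma voom, 310 at a threshold of 0.1 and 0 to 871 with a library left out, the highest without null-virus replicate 1. List genes called there were 1 with library totals, 2 with limma voom, 4 at 0.1 and 0 to 9 with a library left out. For USP28 virus against control, 1647 became 921 with library totals, 895 without the filter, 3790 with the 2 groups alone, 2800 at 0.1 and 362 to 4075 with a library left out. List genes there were 12 without the filter, 40 with the 2 groups alone and 8 to 46 with a library left out. The replicate block left 2781 and 1265 calls in the comparisons with control. No pair of same-numbered samples correlated above 0.0603, so the numbers do not pair samples. Myl12a, at 0.07 for null virus against control, was -0.41 (adjusted p = 0.00997) without null-virus replicate 1 and 0.37 without replicate 2. The cause of these moves was not tested. Among the named genes, depth limits the Mir499 row, with 0 to 2 reads per library.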
